A study of Mus musculus with 4 samples.

Results

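The MS4A genes encode small membrane proteins of leukocytes, and 7 of them, grouped as MS4A genes of macrophages, were followed here: Ms4a4a, Ms4a4b, Ms4a4c, Ms4a6b, Ms4a6c, Ms4a6d and Ms4a7. Of these, Ms4a4b is best known from T cells. The 7 genes were chosen by symbol, as the rows of the count table whose Ensembl identifiers carry these names in the GENCODE M21 annotation. All 7 of 7 were found among the 54146 genes of the table, and all 7 were among the 14688 genes with enough counts to be tested.

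The counts came from tumor-associated macrophages (TAMs) of MCA205, a transplantable mouse fibrosarcoma line, grown under the skin of the right flank of female C57BL/6 mice that were 8 to 16 weeks old. Control mice, labelled vehicle, gave 2 libraries, and mice that drank propranolol, a nonselective blocker of beta-adrenergic receptors, at 0.5 g/L from the day the tumor cells were injected gave another 2. CD45+ cells were enriched on magnetic beads, live CD11b+ F4/80+ cells were sorted, and their polyadenylated RNA was sequenced, which gave 13798249 and 23018142 gene counts for the control mice, and 39818103 and 16424081 for the propranolol treated mice. The study describes the libraries as biological replicates, but the sources used here do not give the number of mice behind each, so p-values measure only the spread between these 4 samples. Levels are given in CPM, the count of a gene relative to the total count of its library after TMM scaling. The sort markers were present, with Adgre1, which encodes F4/80, at 974 and 1006 CPM in control TAMs and at 1150 and 1099 with propranolol, and Itgam, which encodes CD11b, lay between 312.5 and 369 CPM in all 4.

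MS4A proteins cross the membrane several times and usually work beside another receptor, as subunits or adaptors that tune its signal or its place in the membrane. The best known are CD20, the B cell antigen encoded by Ms4a1, and the beta chain of the high-affinity IgE receptor, encoded by Ms4a2 in mast cells. In macrophages, MS4A4A is a surface marker of alternative activation that associates with the beta-glucan receptor Dectin-1, and the human MS4A locus is linked to soluble TREM2, a lipid-sensing receptor of microglia and TAMs.

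The mouse genes lie side by side on chromosome 19, and 4 of the 7 members form 2 pairs with similar promoters. Promoters were taken from RefSeq for GRCm38.p6 as the 250 bases before the annotated start. The table held 7 promoters for 6 of the 7 members. The promoters of Ms4a4b and Ms4a4c were identical at 80.1% of 231 aligned bases, and those of Ms4a6b and Ms4a6c at 85.1% of 175, while the next most similar combination of different members, Ms4a4c with Ms4a6b, reached 64.7%. These 4 promoters are shown because the calls differed between the 2 pairs, with Ms4a4b and Ms4a4c lower in TAMs of propranolol treated mice and Ms4a6b and Ms4a6c not called. Capitals mark the aligned runs of at least 10 bases that are identical within a pair. There were 6 such runs with 92 bases in the first pair and 3 runs with 82 bases in the second, where the longest run had 48 bases. All 4 lie on the plus strand, at chr19:11443308-11443557 for Ms4a4b, chr19:11407411-11407660 for Ms4a4c, chr19:11518309-11518558 for Ms4a6b and chr19:11469118-11469367 for Ms4a6c.
Ms4a4b: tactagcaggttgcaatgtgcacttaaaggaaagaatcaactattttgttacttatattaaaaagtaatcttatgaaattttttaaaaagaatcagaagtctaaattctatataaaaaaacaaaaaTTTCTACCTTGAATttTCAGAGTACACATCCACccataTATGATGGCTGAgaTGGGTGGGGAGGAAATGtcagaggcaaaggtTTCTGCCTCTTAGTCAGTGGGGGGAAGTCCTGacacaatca
Ms4a4c: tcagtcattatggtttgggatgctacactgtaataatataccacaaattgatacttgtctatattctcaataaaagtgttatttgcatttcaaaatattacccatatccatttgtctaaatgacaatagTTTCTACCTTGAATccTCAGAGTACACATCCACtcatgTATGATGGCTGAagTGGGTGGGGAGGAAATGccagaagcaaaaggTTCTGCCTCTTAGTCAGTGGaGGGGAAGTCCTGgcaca
Ms4a6b: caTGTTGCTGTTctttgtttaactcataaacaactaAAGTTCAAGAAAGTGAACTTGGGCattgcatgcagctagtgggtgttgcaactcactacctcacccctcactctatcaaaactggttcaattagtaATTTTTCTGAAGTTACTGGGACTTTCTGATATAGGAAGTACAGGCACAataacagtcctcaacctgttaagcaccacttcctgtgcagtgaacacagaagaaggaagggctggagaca
Ms4a6c: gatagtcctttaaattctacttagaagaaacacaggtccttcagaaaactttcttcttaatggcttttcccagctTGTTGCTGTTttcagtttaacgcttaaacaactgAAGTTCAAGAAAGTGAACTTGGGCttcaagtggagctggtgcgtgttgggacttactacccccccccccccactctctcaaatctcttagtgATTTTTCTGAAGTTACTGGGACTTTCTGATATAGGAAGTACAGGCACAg

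Motifs were searched on both strands of these windows. The letters GAGGAAGT, a strong binding sequence of the macrophage factor PU.1, occur in 2.44% of the 32851 promoters of the table and in none of the members' windows. The cyclic AMP response element TGACGTCA, a sequence read downstream of beta-adrenergic receptors, occurs in 1.55% of promoters and in none of the members' windows. The core AAANNGAAA of the interferon-stimulated response element occurs in 9.37% of promoters. Among the members it was found once in Ms4a6c, 166 bases before the start, and once in the second of the Ms4a7 promoters, 63 bases before the start.

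Compared with control TAMs, TAMs of propranolol treated mice held less Ms4a4b and Ms4a4c RNA, and none of the 7 genes was called higher. With the trend of each library's levels on gene GC content removed, both calls were lost (-0.77 and -0.01 on the log2 scale), and Ms4a6b (0.80) and Ms4a6c (0.74) were called higher instead. Calls required more than a 1.5-fold change and, in edgeR's quasi-likelihood test, an adjusted p under 0.05. By this rule 2 of 7 members fell, where 15.6% of all tested genes were called lower, and 0 of 7 rose, where 12.2% were called higher. Without the fold threshold 3 of 7 members had an adjusted p under 0.05, beside 42.2% of all tested genes. The CPM of the 2 groups did not overlap for 4 of the 7 members, Ms4a4b, Ms4a4c and Ms4a7 lower and Ms4a6c higher, beside 72.6% of all tested genes. The median log2 fold change was -0.15 over the members and -0.02 over all tested genes. In bulk RNA of sorted cells, fewer cells of a type and less RNA per cell cannot be told apart.

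**Figure D1:**
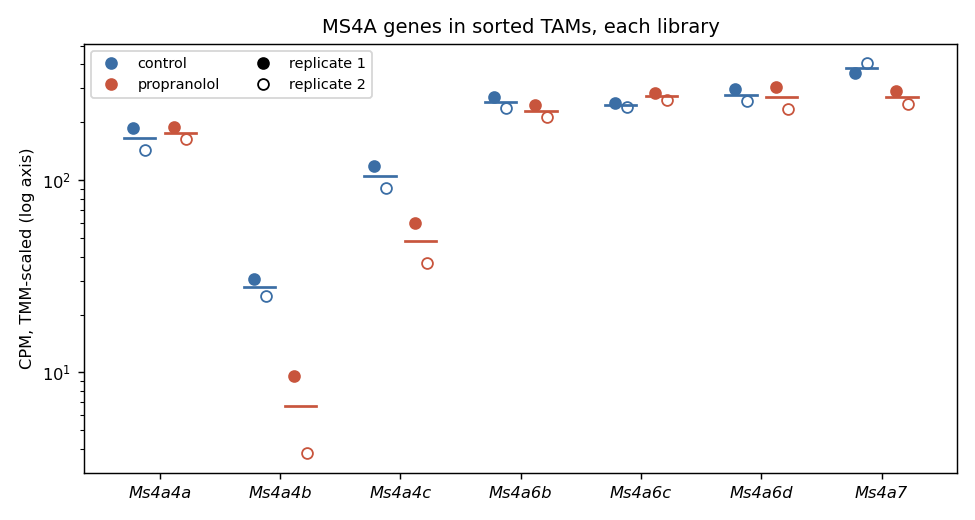
Level of each MS4A gene in each of the 4 libraries, in CPM scaled by TMM factors on a log axis, with control libraries in blue and propranolol libraries in red. Filled points are replicate 1, open points replicate 2 and lines the group means. Ms4a4b and Ms4a4c lie lower in both propranolol libraries, while the groups overlap for Ms4a4a, Ms4a6b and Ms4a6d.

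Ms4a4b (ENSMUSG00000056290.15, chr19:11443553-11467055 on GRCm38, plus strand) is best known from T cells, where its protein sits near the costimulatory receptor GITR. It had 454 and 627 counts in control TAMs and 349 and 58 counts with propranolol, although the first propranolol library was the deepest. Scaled, these were 30.6 and 24.9 CPM against 9.59 and 3.79 CPM. Both propranolol libraries were below both control libraries, and the second was the lowest of the 4. The fall was 3.93-fold (log2 fold change -1.98 ± 0.32 SE, 95% interval -2.68 to -1.27, n = 2 per group, adjusted p = 0.000976).

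Its neighbour and nearest relative Ms4a4c (ENSMUSG00000024675.19, chr19:11404770-11427246, plus strand), found in monocytes and lymphocytes, had 118.6 and 90.6 CPM in control TAMs and 59.9 and 37.1 CPM with propranolol. Again the groups did not overlap and the second propranolol library was the lowest. Ms4a4c fell 2.13-fold (log2 fold change -1.09 ± 0.20 SE, 95% interval -1.54 to -0.64, n = 2 per group, adjusted p = 0.00207). The genes share sequence: 4.19% of the 50-base windows of the Ms4a4b transcript also occur in another gene, mainly Ms4a4c, and 8.48% of those of Ms4a4c occur in another gene, mainly Ms4a4b. A small part of their counts is therefore uncertain, even though only reads with a mapping quality above 30 were counted.

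Ms4a7 (ENSMUSG00000024672.11, chr19:11321039-11336146, minus strand) is expressed by mature and monocyte-derived macrophages and had the highest CPM of the family in control TAMs. It was at 362 and 404 CPM in control TAMs and at 292 and 248 CPM with propranolol. The groups did not overlap, but the difference of 1.42-fold was smaller than the fold threshold (log2 fold change -0.50 ± 0.11 SE, 95% interval -0.75 to -0.26, adjusted p = 0.00492). Without the first propranolol library Ms4a7 was called lower, at a log2 fold change of -0.63, and with the GC trend removed its direction turned, at 0.10. No 50-base window of its transcript was shared with another gene.

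Ms4a4a (ENSMUSG00000101389.1, chr19:11375523-11392790, plus strand), the mouse counterpart of the human marker of alternative activation, did not pass the test. It was at 187 and 143 CPM in control TAMs and at 188 and 163 CPM with propranolol, so the groups overlapped. The log2 fold change was 0.09 ± 0.13 SE, with a 95% interval of -0.21 to 0.39 and an adjusted p of 0.622. Its direction was not stable, since it was -0.08 without the second control library and -0.01 without the first propranolol library. With the GC trend removed Ms4a4a was at 0.54 (adjusted p = 0.0136 in edgeR), still under the fold threshold.

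The Ms4a6 genes also did not pass. Ms4a6b (ENSMUSG00000024677.13, chr19:11516512-11531256, plus strand), whose protein can associate with GITR on T cells, was at 270 and 238 CPM in control TAMs and at 246 and 213 CPM with propranolol (log2 fold change -0.15, 95% interval -0.39 to 0.10, adjusted p = 0.311). Ms4a6d (ENSMUSG00000024679.10, chr19:11586604-11604849, minus strand), whose protein pairs with the macrophage complement receptor VSIG4 and restrains the NLRP3 inflammasome, was at 297 and 258 CPM against 305.5 and 235 CPM (log2 fold change -0.04, 95% interval -0.33 to 0.26, adjusted p = 0.846). In both genes the CPM of the groups overlapped, and the intervals leave room for modest changes in either direction. With the GC trend removed both directions turned, with Ms4a6b at 0.80 and called higher, and Ms4a6d at 0.44 and not called.

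Ms4a6c (ENSMUSG00000079419.4, chr19:11469366-11482192, plus strand) was at 252 and 241 CPM in control TAMs and at 285 and 261 CPM with propranolol. Its groups did not overlap on this scale, but the difference did not pass (log2 fold change 0.15, 95% interval -0.07 to 0.36, adjusted p = 0.248). In TPM, which divide counts by exon length and sum to the same total in each library, the order was the opposite, with 403 and 396 TPM in control TAMs and 384 and 366 TPM with propranolol. On that scale Ms4a6b was at 197.6 and 179.1 TPM against 151.3 and 136.5 TPM, and Ms4a6d at 561 and 502.5 TPM against 486.3 and 389.5 TPM. The share of all tested genes whose groups do not overlap in TPM was not counted. In CPM it was 72.6%, so these orders are given as a description only. Of the 50-base windows of the Ms4a6c transcript, 11.9% also occur in another gene, mainly Ms4a6b. The share was 5.89% for Ms4a6b, mainly with Ms4a6c, and 2.92% for Ms4a6d, mainly with Ms4a6b. Ms4a6c also shares 1088 of its 2050 exon bases with BE692007, a noncoding transcript on the other strand. The counting parameters that the study names include no strand option, so reads from the shared bases cannot be told apart. BE692007 itself had 583 and 848 counts in control TAMs and 622 and 240 with propranolol, and it fell (log2 fold change -1.15, adjusted p = 0.000276), a call that was lost with the GC trend removed, at 0.08.

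**Figure D2:**
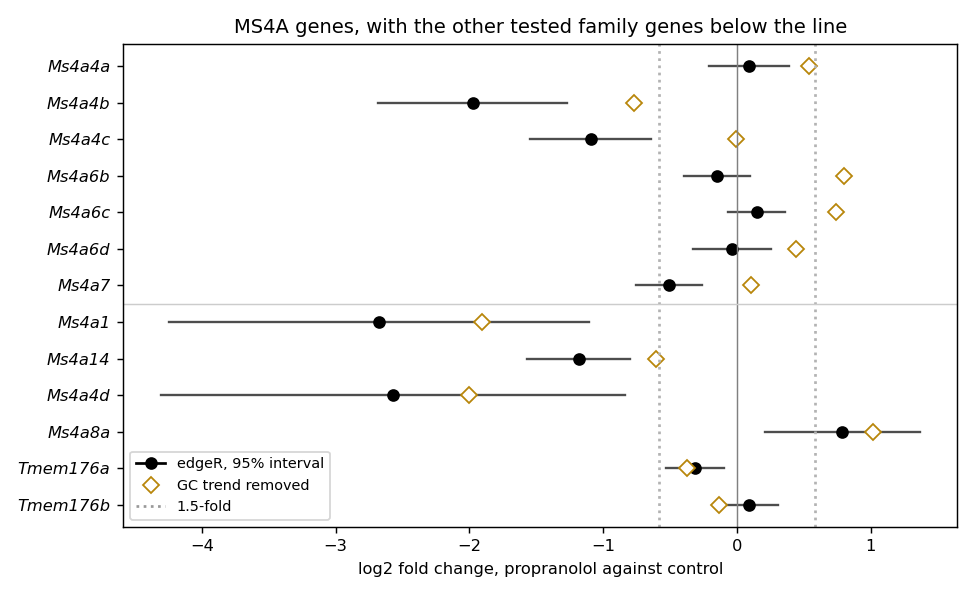
Log2 fold change of TAMs from propranolol treated against control mice for the 7 MS4A genes and, below the line, the 6 other tested genes of the family. Black points with bars are the edgeR estimates with 95% intervals, open diamonds the estimates with the GC trend of each library removed, and dotted lines mark 1.5-fold. Ms4a4b moved from -1.98 to -0.77 and Ms4a4c from -1.09 to -0.01 when the trend was removed.

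Per exon length, Ms4a4a was the most abundant member in control TAMs at 657 ± 110 TPM (SD, n = 2), followed by Ms4a6d at 532 ± 41.4, Ms4a6c at 399 ± 4.58, Ms4a7 at 286 ± 27.9, Ms4a4c at 198 ± 33.4, Ms4a6b at 188 ± 13 and Ms4a4b at 10.5 ± 1.29 TPM. Only Ms4a4c and Ms4a6b overlapped among neighbours in this order. The place of Ms4a6c is uncertain, since reads from the exon bases it shares with BE692007 cannot be told apart. The order also depends on the length used, here the union of annotated exons. For Ms4a7 this union was 4453 bases, while its longest coding transcript has 1576, and for Ms4a4a both were 836. The place of Ms4a7 is therefore uncertain too, and an order by transcript length was not computed. In TAMs of propranolol treated mice the first 4 genes kept their places, and Ms4a6b at 144 ± 10.5 TPM now stood above Ms4a4c at 77.7 ± 23.8 TPM without overlap. Ms4a4b remained the least abundant at 2.13 ± 1.25 TPM. The 7 genes summed to 2396 and 2147 TPM in control TAMs and to 1922 and 1676 TPM with propranolol. Ms4a4c made up 9.27% and 8.14% of this sum in control TAMs and 4.92% and 3.63% with propranolol, whereas Ms4a6c made up 16.8% and 18.5% against 20% and 21.8%.

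The members are AT-rich, and GC content went along with the fold changes of all genes. The GC content of the members' longest transcripts ran from 37.2% in Ms4a4b to 44.1% in Ms4a4a, below the median of 49.6% over tested genes. Of the 2979 tested genes in that range, 44.1% were called lower and 0.571% higher, with a median log2 fold change of -0.67. Set beside genes of like GC content, Ms4a4c lay near the middle, Ms4a4b below it, and Ms4a6b, Ms4a6c, Ms4a4a and Ms4a6d above it.

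**Figure D3:**
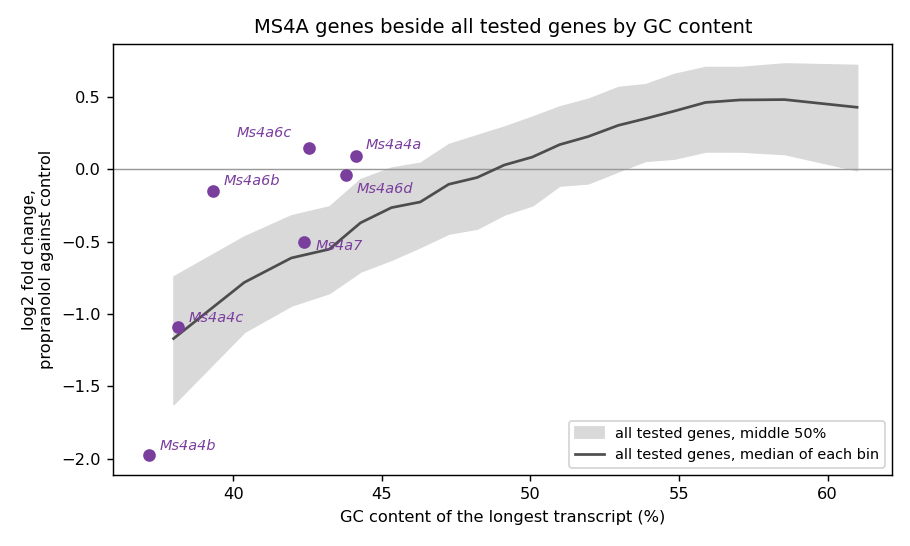
Log2 fold change against GC content of the longest transcript in percent, with the 7 MS4A genes in purple. The line is the median and the band the middle 50% of the tested genes in 20 bins of equal size. The bin median rises from -1.17 at 38% GC to 0.43 at 61% GC, and Ms4a4c lies near the line. Ms4a4b, at 37.2% GC, lies left of the band and lower than its bottom edge of -1.62 at 38% GC.

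When the smooth trend of each library's levels on GC content was removed before the test, the calls among the members were different ones. Ms4a4b was at a log2 fold change of -0.77 and Ms4a4c at -0.01, and neither passed. Ms4a6b at 0.80 and Ms4a6c at 0.74 were now called higher, and Ms4a7 was at 0.10. Ms4a4a at 0.54 and Ms4a6d at 0.44 passed on adjusted p but stayed under 1.5-fold. Thus 2 of 7 members were called higher, where 7.64% of all tested genes were, and 0 of 7 lower, where 4.97% were, and 0 of the calls were shared with the test without the correction. The correction moved the median of all tested genes from -0.02 to 0.09 and that of the members from -0.15 to 0.44. Ms4a4b and Ms4a4c had the lowest log2 fold changes of the 7 under both. The cause of the GC trend was not tested.

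The other genes of the family were mostly absent or scarce. Of 15 symbols, 14 were in the table, 10 had at least 1 count, and 6 were tested, of which 1 rose and 3 fell. Among all tested genes 12.2% were called higher and 15.6% lower. Ms4a14, a little-studied gene next to Ms4a7, was at 41.6 and 60 CPM in control TAMs and at 21.4 and 23.7 CPM with propranolol (log2 fold change -1.18, adjusted p = 0.0006). It was still called lower with the GC trend removed, at -0.60. Ms4a8a, a gene induced in myeloid cells of tumors and inflamed tissue, rose from 4.11 and 3.9 CPM to 7.42 and 6.35 CPM (log2 fold change 0.79, adjusted p = 0.0327). It was also called higher with the trend removed, at 1.02, but not in the DESeq2 Wald test, without the second control library or without the first propranolol library (adjusted p at most 0.166 over the alternatives).

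CD20 and Ms4a4d were near the limit of detection. Ms4a1 had 15 and 25 counts in control TAMs and 6 and 2 with propranolol (log2 fold change -2.67 ± 0.70 SE, adjusted p = 0.0125), and Ms4a4d had 24 and 17 against 5 and 4 (log2 fold change -2.57 ± 0.78 SE, adjusted p = 0.0233). Neither was called with the GC trend removed or without the first library of either group, and Ms4a1 was not called without any one of the 4. Ms4a12, Ms4a15, Ms4a5 and Ms4a13 had at most 7 counts in any library and were not tested, and Ms4a2, Ms4a3, Ms4a10 and Ms4a18 had none. The relatives Tmem176a and Tmem176b, encoded on another chromosome and active in myeloid cells, were abundant but not called (log2 fold changes -0.31 and 0.09, adjusted p = 0.0268 and 0.507).

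Along the cluster, lower genes were interspersed with genes that were not called, and most of the lower calls were lost with the GC trend removed. From Ms4a10 to Ms4a3 the cluster spans 678.6 kb with 35 annotated genes, of which 16 were tested, 1 rose, 9 fell and 8 had no count. The lower share stands beside 15.6% of all tested genes and 44.1% of those in the GC range of the members. With the GC trend removed 1 of the 16, Ms4a14, was called lower and 3, Ms4a8a, Ms4a6b and Ms4a6c, higher. Ms4a4c and Ms4a4b lie together between Ms4a4a on one side and Ms4a6c on the other, both of which did not pass. Lower genes outside the family were the noncoding AW112010 (log2 fold change -1.16), BE692007, Gm8369 (-1.25) and Gm38275 (-2.32). Gm8369 lost its call without the second propranolol library, and Gm38275, with at most 22 counts in a library, under 8 of 13 alternatives, among them the DESeq2 Wald test and leaving out any one library.

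**Figure D4:**
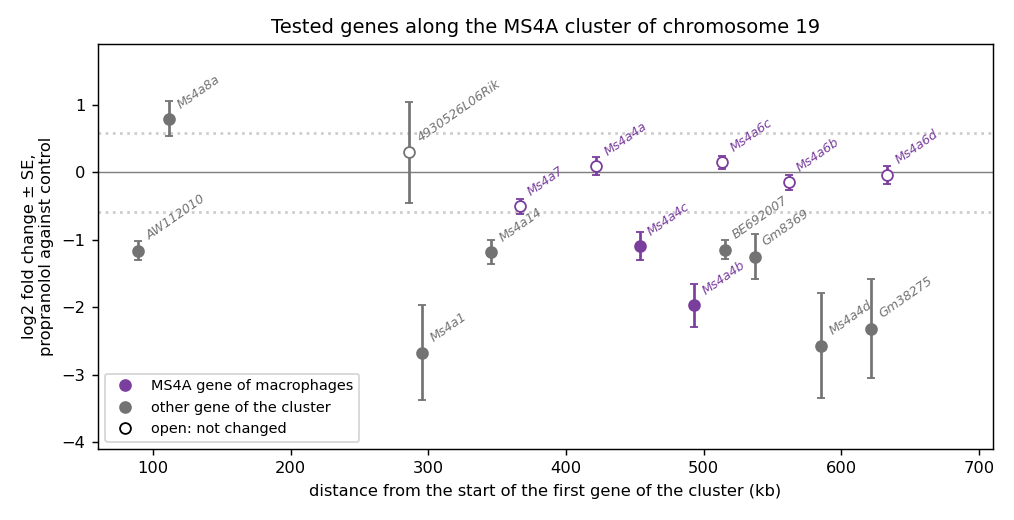
Log2 fold change with its SE of the 16 tested genes along the MS4A cluster of chromosome 19, by distance in kb from the start of the first gene. Purple points are the 7 MS4A genes grouped as those of macrophages, grey points other genes, and open points genes not called changed. Ms4a4c at -1.09 and Ms4a4b at -1.98 stand between Ms4a4a at 0.09 and Ms4a6c at 0.15.

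Genes of proteins reported to act together with MS4A proteins, and of their adaptors, changed in both directions. Of 9 genes, 8 were tested, of which 3 rose and 1 fell, with a median log2 fold change of 0.47. Over all tested genes 12.2% were called higher and 15.6% lower. Trem2 rose from 319 and 318 CPM to 589 and 632.5 CPM (log2 fold change 0.94, adjusted p = 0.000125), Card9, the adaptor downstream of Dectin-1, rose by 1.24 and Nlrp3, the inflammasome sensor, by 0.84 on the log2 scale. Clec7a, which encodes Dectin-1, fell from 196 and 191 CPM to 131 and 74.7 CPM (log2 fold change -0.90, adjusted p = 0.00546), and it was not called with the GC trend removed, at -0.12, or without the second propranolol library, at -0.53. The other 3 kept their calls under that correction. Tyrobp and Fcer1g, which encode signalling chains of myeloid receptors, were not called (0.51 and 0.13), and neither was Syk (0.44). Tyrobp and Syk passed on adjusted p in edgeR (0.00216 and 0.00557) but stayed under the fold threshold. Tnfrsf18, which encodes GITR, was at -0.11, and Vsig4, the partner of Ms4a6d, had at most 14 counts in a library and was not tested.

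Because Ms4a4b and Ms4a6b are also genes of T cells, markers of other cells were read beside them. Their counts stand beside 12.2% of all tested genes called higher and 15.6% called lower. The gate for CD11b and F4/80 selects against T cells, and the study checked the purity of its sorted cells. Among 16 T cell markers 13 fell and 0 rose, with a median log2 fold change of -1.13, and by adjusted p the first were Cd3g (-2.08), Cd8a (-1.84), Cd2 (-1.52) and Il7r (-1.02). The 3 that were not called were Cd4 (0.32), Foxp3 (0.20) and Cd5 (-0.55). Their summed level was 418 and 459 CPM in control TAMs and 226 and 135 CPM with propranolol. Of 10 NK cell markers 10 fell, with a median of -1.84, by adjusted p first Nkg7 (-1.85), Klrd1 (-3.24), Klrk1 (-1.88) and Klre1 (-2.79), from a sum of 296 and 305 CPM to 125 and 66.8 CPM. Thy1 and Gzmb were the most abundant genes of these lists and no marker of either was at 0. With the GC trend removed 10 of the 13 T cell markers kept their calls, Cd247, Ctla4 and Il7r lost theirs and Cd5 was newly called lower (-0.87), and 8 of the 10 NK cell markers kept theirs, all but Klrk1 and Ncr1.

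Ms4a4b thus fell together with the lymphocyte markers, and in both lists, as for Ms4a4b and Ms4a4c, the second propranolol library was the lowest. With the GC trend removed Ms4a4b (-0.77) and Ms4a4c (-0.01) lost their calls, whereas most of these markers kept theirs. The level of Ms4a4b was 7.31% and 5.43% of the summed T cell markers in control TAMs and 4.25% and 2.8% with propranolol, and of the summed NK cell markers it was 10.3% and 8.19% against 7.68% and 5.68%. The part of these cells in the fall of Ms4a4b and Ms4a4c was not tested. Of the tested protein-coding genes outside the family, those whose centred log2 CPM over the 4 libraries lay nearest to Ms4a4b were Casp12, Gzma and Ifng, with root-mean-square differences of 0.0499, 0.0614 and 0.0678. Gzma, which encodes a granule protease of NK cells and cytotoxic T cells, is among the NK cell markers read here. Casp12, the nearest, and Ifng are in neither of these lists.

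**Figure D5:**
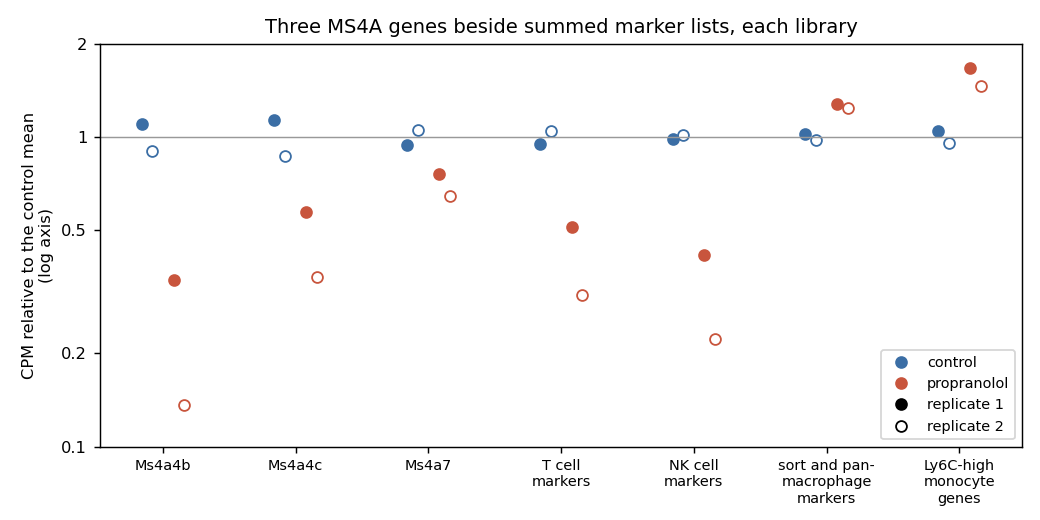
Level of Ms4a4b, Ms4a4c and Ms4a7 and summed level of 4 gene lists in each library, relative to the mean of the control libraries on a log axis. Blue points are control and red points propranolol libraries, filled for replicate 1 and open for replicate 2. Ms4a4b at 0.346 and 0.137 of the control mean and the NK cell markers at 0.416 and 0.223 were lowest in the propranolol libraries.

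By the same measure, the nearest were Lrrc15, Epb41l3 and Zfp383 for Ms4a4c, Washc3, Asb3 and Apobec3 for Ms4a7, Rab1a, Pdpr and Dnajc15 for Ms4a6b, Cyb561d1, Hexa and Aatf for Ms4a6c, Gins4, Mettl25 and Clybl for Ms4a6d, and Acad10, B230118H07Rik and Ctnnal1 for Ms4a4a. Over 4 libraries many genes share such a profile, and likeness is given here as a description only.

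Few macrophage and monocyte genes were called lower beside Ms4a4b and Ms4a4c. The counts of these lists stand beside 12.2% of all tested genes called higher and 15.6% called lower. Among 12 sort and pan-macrophage markers 1 rose, Csf1r (log2 fold change 0.59), and 1 fell, Ptprc, which encodes CD45 (-0.74). With the GC trend removed Csf1r was at 0.32 and Ptprc at 0.20, and neither was called. Csf1r was also not called with upper-quartile factors, with the stricter filter or without the second propranolol library. Of 15 genes of resident-like or alternatively activated macrophages, the state that MS4A4A marks, 8 rose and 1, Timd4 (-1.58), fell, with a median of 0.62. Timd4 had 6 to 36 counts in a library and lost its call in the DESeq2 Wald test, with the GC trend removed and without any one library. Those that rose included Stab1 (1.37), Cbr2 (1.31), Chil3 (1.28) and Pf4 (0.86), whereas Ms4a4a itself was at 0.09. Mrc1 (0.33), Mgl2 (0.19), Maf (0.11), Retnla (-0.215), Lyve1 (-0.25) and Selenop (-0.36) were not called. With the GC trend removed Stab1, Cbr2, Chil3 and Pf4 were still called higher, and Ms4a4a was at 0.54, under the fold threshold. Under that correction Gas6 and Folr2 lost their calls and Mrc1 was newly called higher (0.85). Of 10 genes of Ly6C-high monocytes 5 rose and 0 fell, with a median of 0.53, namely Hp (1.81), Ifitm6 (1.14), Fn1 (0.87), Plac8 (0.79) and F13a1 (0.62), the last pair not called without the first propranolol library and F13a1 also not with upper-quartile factors. Ccr2, the chemokine receptor that defines these monocytes, was at 453 and 397 CPM in control TAMs and at 306 and 262 CPM with propranolol, just under the fold threshold (log2 fold change -0.58, adjusted p = 0.00249, and 0.36 with the GC trend removed). Of 12 type I interferon-stimulated genes 4 rose, namely Isg15 (0.96), Irf7 (0.76), Usp18 (0.72) and Oas1a (0.70), and 2 fell, Ifit2 (-1.02) and Ifi44 (-0.88). With the GC trend removed Ifit2 was at -0.38 and Ifi44 at -0.05, and neither was called, nor were Irf7 at 0.46 and Oas1a at 0.55, while Cmpk2 (0.60) and Rsad2 (0.64) were newly called higher, so that 4 were again higher.

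The remaining lists bear on other cells that hold MS4A genes or could enter the gate. For comparison, 12.2% of all tested genes were called higher and 15.6% lower. Of 8 B cell markers 4 were tested, of which Ms4a1 fell and Cd79b rose (log2 fold change 0.78), neither of them called with the GC trend removed, and the sum was 182.5 and 207 CPM against 211 and 222 CPM, mostly from Ighm. Of 8 dendritic cell markers Clec9a, Xcr1 and Cd209a fell and 0 rose, and with the GC trend removed only Clec9a was still called. Clec9a lost its call without the second control library, and Cd209a without the first control or the second propranolol library. Of 8 neutrophil markers 7 were tested and 6 rose, by adjusted p first S100a9 (2.04), Trem1 (1.14), S100a8 (1.33) and Cxcr2 (1.31). Of 8 mast cell and basophil markers the tested Kit and Gata2 fell, Gata2 not without the first control or either propranolol library, and Ms4a2, Fcer1a and Mcpt8 were at 0. Of 6 endothelial markers 4 were tested, of which 1, Cdh5 (0.77), rose, a call lost under 7 of 14 alternatives. Of 8 fibroblast and fibrosarcoma markers 5 fell, namely Pdgfra, Col3a1, Dcn, Col1a1 and Col1a2 (Dcn not with the GC trend removed, Col1a1 and Col1a2 not in the DESeq2 Wald test or without the first control library), and their sum was 2796 and 1051 CPM in control TAMs and 641.5 and 696 CPM with propranolol, so that the first control library stood apart. Without that library Ms4a4b and Ms4a4c were still called lower.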

How the data were processed

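The authors deposited raw gene counts of 4 libraries. Per their methods and processing notes, reads were aligned to mm10 with STAR 2.7.1a, filtered with SAMtools 1.9 at a mapping quality above 30, and counted as fragments over GENCODE exons with featureCounts 1.6.4. The GENCODE release and the strand setting are not given in the sources used here. Libraries held 13798249 to 39818103 counts.

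Genes were matched to GENCODE M21 (54079 of 54146), filtered by filterByExpr at a minimum count of 10, scaled by TMM and tested with the quasi-likelihood test of edgeR 4.0.16 in R 4.3.3, propranolol against control without further factors. P-values were adjusted over 14688 genes by Benjamini-Hochberg. Changed means an adjusted p under 0.05 and more than 1.5-fold. CPM use TMM-scaled library sizes, and TPM use the union of annotated exons. The GC trend was a spline with 5 degrees of freedom on the GC content of the longest transcript, removed per library by offsets. In total 15 alternatives were tried, among them DESeq2 1.42.0 and limma 3.58.1. The scripts were tested on simulated data.

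All 7 members are named, with every other family gene with a count, the genes of the cluster, up to 4 changed genes with the smallest adjusted p from each of 14 lists (or the most abundant where none changed), and the 3 nearest genes by centred log2 CPM. Genes named for a role or as a sort marker (Adgre1, Itgam, Tyrobp, Syk, Tnfrsf18, Vsig4, Ccr2, Cd4, Foxp3, Cd5, Cd247, Ctla4, Ncr1, Cmpk2, Rsad2, Thy1, Gzmb, Ifi44, Timd4, Ifitm6, Usp18, Col1a2, Mrc1, Mgl2, Maf, Retnla, Lyve1, Selenop, Gas6, Folr2) were chosen after their values were seen. The members and lists were chosen with earlier results of these data known.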

Additional observations from a re-analysis of the deposited data

How the results depend on the processing

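Ms4a4b and Ms4a4c were both called lower under 12 of 12 alternatives that changed the test, the scaling, the filter, the libraries or the block, or dropped the fold threshold. All-gene calls went from 4084 to 6204 without the fold threshold, where Ms4a7 at -0.50 passed, and to 728 at a log2 fold change above 1.5, where 1 member remained and Ms4a4c at -1.09 did not. Removing the GC trend left 1851 calls, and 2120 together with the replicate block. In that order Ms4a4b was at -0.77 (not called) and -0.89 (called, adjusted p = 0.00648 in edgeR), Ms4a4c at -0.0066 and -0.034, Ms4a6b at 0.80 and 0.80, Ms4a6c at 0.74 and 0.74, Ms4a6d at 0.44 and 0.43 and Ms4a7 at 0.10 and 0.10. Ms4a14 was not called with both. Over all alternatives the adjusted p of Ms4a4b reached at most 0.0834. Beside them Tmem176b was at -0.14 and -0.14, BE692007 at 0.080 and 0.076, Ptprc at 0.20 and 0.20, Ighm at -0.043 and -0.040, Batf3 at -0.23 and -0.24, and Fcer1g with both at -0.0088. Without the filter on low counts Ms4a6d was at 0.036. The cause was not tested.

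Leaving out 1 library at a time gave -0.076 to 0.35 for Ms4a4a, -2.86 to -1.50 for Ms4a4b, -1.49 to -0.77 for Ms4a4c, -0.25 to 0.0014 for Ms4a6b, 0.09 to 0.24 for Ms4a6c, -0.24 to 0.17 for Ms4a6d, -0.63 to -0.36 for Ms4a7, -0.026 to 0.31 for Fcer1g and -0.16 to 0.33 for Batf3, the lone library being assumed to vary like the other group. Deviations of same-numbered libraries from their group means correlated at 0.169 across 14688 genes, and nothing says that the numbers pair the samples. With the replicate block 4362 genes were called and no call among the 7 members changed (Ms4a4b -2.11, Ms4a4c -1.13). The smallest count of a member was 58, for Ms4a4b in the second propranolol library, and Ms4a1 and Ms4a4d had at most 25 counts in any library.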
